A study of Mus musculus with 2 samples.

Results

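The genes described here are 9 genes of the TGF-beta pathway: the ligand gene Tgfb1, the receptor genes Tgfbr1 and Tgfbr2, the Smad genes Smad2, Smad3, Smad4 and Smad7, the corepressor gene Skil, and Tgfbi, a gene named for its induction by TGF-beta. They were chosen by name among the 27188 gene symbols listed for either of the 2 libraries, and each is listed for both. Their unique molecular identifiers (UMIs, counts of captured RNA molecules) were read in T, NK, B and myeloid cells and in Sparc-led cells of each library.

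TGF-beta is secreted in a latent complex that has to be opened, on integrins or by proteases, before it can bind. The active ligand is bound by the type II receptor, which activates the type I receptor, and this phosphorylates Smad2 and Smad3. These join Smad4 and enter the nucleus, where they regulate transcription, and Smad7 and the product of Skil restrain the signal. In tumours the pathway is known for limiting cytotoxic lymphocytes, for the induction of regulatory T cells and for matrix deposition by connective tissue cells.

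The cells came from MC38 tumours, a mouse colon carcinoma line, grown under the skin of C57BL/6 mice, and the genotype was labelled WT in both groups. The PBM group was treated with pulsed photobiomodulation, that is with light, daily from day 7, and tumours of both groups were taken on day 14; what the control mice received is not given in the labels. Cells that carried CD45, a surface protein of immune cells, were sorted and pooled within a condition, so that each group is 1 library of a pool of animals whose number is not stated. The sample labels give the cell type as tumour cells, which is the implanted line and not the sorted fraction.

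With 1 library per group no test was possible, and treatment, pool of animals and library cannot be told apart. Levels are UMIs of a gene per 1000000 UMIs of the cell group (CPM), every interval is at 95% and reflects counting error alone, and a fold of 2 is used as a mark of size, not of significance. The control library held 11238 barcodes and 104673228 UMIs and the PBM library 13962 barcodes and 86159897 UMIs, with medians of 5621.5 and 5143.5 UMIs per barcode; 1991 barcode names, which are cell numbers and not nucleotides, occur in both. After filtering, 2167 control and 6252 PBM cells were T-like, 1330 and 203 NK-like, 207 and 5609 B-like, and 5107 and 175 monocyte/macrophage-like. The control library also held 155 dendritic-like cells led by Ccl22, 72 neutrophil-like cells and 1213 Sparc-led cells. The PBM library held 4, 12 and 7 of these, and 848 control and 800 PBM cells stayed unnamed. Of the unnamed cells, 443 and 677 lay in a cluster led by Klra7, Samd3 and Ly6c2 that met all 9 T markers. This cluster is not part of the T-like class or its subsets, and is read below as an alternative beside them. The classes were named from markers, with the 9 genes left out of the genes used for clustering.

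Several classes changed their make-up between the libraries or carried RNA of others. Of the control T-like cells 1079 lay in a cluster led by Ifng, Rgs16 and Pdcd1, whereas the PBM T-like cells lay mainly in a cluster led by Dapl1 and Cd8b1 (2707 cells) and another led by Cd40lg (2600 cells). Of the 175 PBM monocyte/macrophage-like cells 103 fell in a sub-cluster led by the B cell genes Cd79a, Igkc and Iglc3, which had 6 control cells and a median of 2078 UMIs. From markers of other classes, the RNA that a class took up from the mixture of the whole library (free RNA) was estimated at 11.4% to 13.5% in the 4 compared control classes and 15.1% to 21.5% in the PBM classes. Each share is a median over markers; single markers gave 0% to 171% in the control and 10.5% to 33.6% in the PBM classes, so that what free RNA could supply is a rough value.

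**Figure D1:**
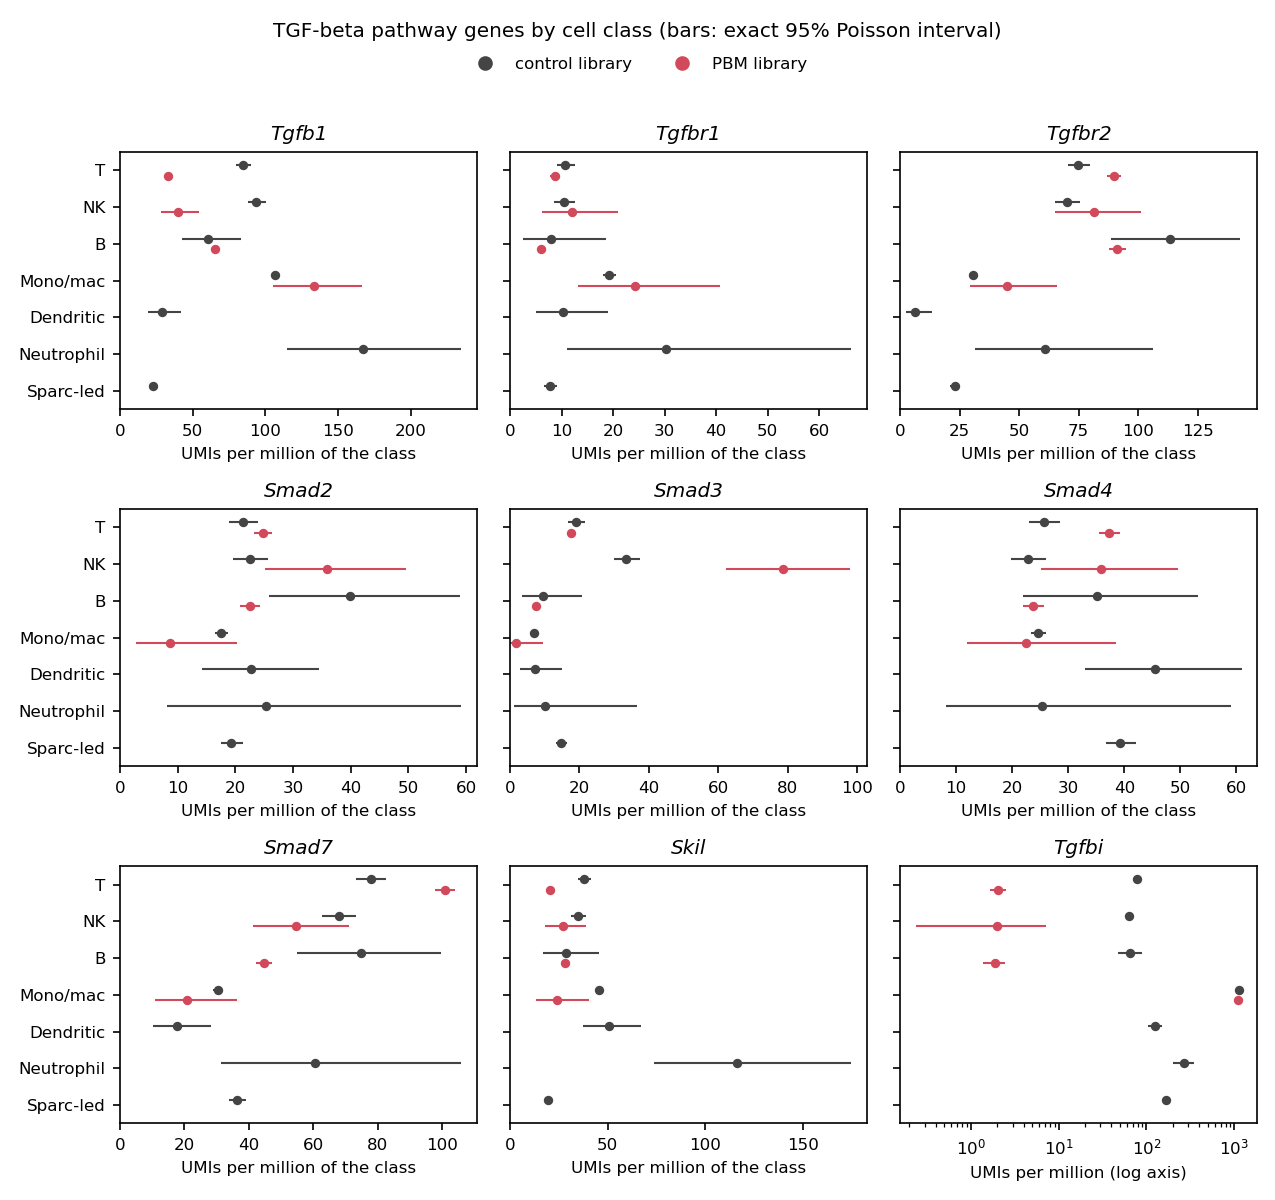
Level of each gene (horizontal axis, CPM; logarithmic for Tgfbi only) in each cell class with at least 50 cells, for the control library (grey) and the PBM library (red), with exact 95% Poisson intervals. Tgfb1 was lower in PBM T-like and NK-like cells, Smad3 was highest in NK-like cells of both libraries, and Tgfbi stood at 1123 and 1094 CPM in monocytes and macrophages.

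Tgfb1 encodes the ligand TGF-beta 1, which leukocytes make and store in latent form. In control T-like cells it was at 84.7 CPM (95% interval 79.9 to 89.8) and in PBM T-like cells at 33.1 CPM (31.4 to 34.9), a log2 ratio of -1.35 (-1.47 to -1.24). NK-like cells differed by a like amount, from 93.8 to 39.8 CPM, a log2 ratio of -1.24 (-1.73 to -0.78), or -0.89 with each cell thinned to 1000 UMIs. B-like cells had 60.6 CPM in the control library and 65.3 CPM in the PBM library, and the interval of their log2 ratio of 0.11 included 0 (-0.35 to 0.61). Monocyte/macrophage-like cells had 107 and 133 CPM, with an interval of the log2 ratio from -0.02 to 0.64.

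The order of Tgfb1 in the control library ran from neutrophil-like cells (167 CPM) through monocyte/macrophage-like, NK-like, T-like and B-like cells down to dendritic-like cells (28.9 CPM) and Sparc-led cells (22.7 CPM). NK-like and T-like cells overlapped in their intervals, as did T-like with B-like and dendritic-like with Sparc-led cells. Monocyte/macrophage-like cells gave 65.3% of all Tgfb1 UMIs of the control library, and B-like and T-like cells gave 50.9% and 38.4% of those of the PBM library. Over all cells kept, Tgfb1 was at 82.5 CPM in the control library and 45.9 CPM in the PBM library. Free RNA at the estimated shares could supply 12.2% of the Tgfb1 level of control T-like cells and 25.8% of that of PBM T-like cells. In control dendritic-like and Sparc-led cells it could supply 40.2% and 40.4% of the Tgfb1 level.

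The lower Tgfb1 of PBM T cells was seen in each subset read by its surface and lineage genes. Cells in which Cd8a or Cd8b1 but not Cd4 was seen had 81.9 CPM in the control library and 29.4 CPM in the PBM library. Those with Cd4 and none of Cd8a, Cd8b1 or Foxp3 had 71.7 and 29.4 CPM. Cells with a UMI of Foxp3, the factor that defines regulatory T cells, had 100.5 and 54.7 CPM, a log2 ratio of -0.88 (-1.13 to -0.62).

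Among T sub-clusters, the Tgfb1 level of the 3 control groups of at least 50 cells was 99.0 CPM in the Foxp3-positive sub-cluster led by Il10 and Klrg1, 92.2 CPM in the one led by Nrgn, Ccl4 and Xcl1, and 58.7 CPM in the one led by Gzma and Ccl5. PBM sub-clusters ranged from 23.8 CPM in the one led by interferon-induced Rsad2 and Ifit3 to 63.7 CPM in the dividing cells led by histone genes. The control cells led by Nrgn met the same 6 markers of dividing cells as these histone-led PBM cells. The PBM sub-cluster led by Tiam1, Izumo1r and Nrp1, which also has Foxp3 among its leading genes, had 52.7 CPM. No T sub-cluster had 50 cells in both libraries.

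Tgfbr1 encodes the type I receptor, the kinase that phosphorylates Smad2 and Smad3. It was at 19.3 CPM in control and 24.2 CPM in PBM monocyte/macrophage-like cells, against 10.7 and 8.69 CPM in T-like cells, 10.4 and 11.9 CPM in NK-like cells and 7.98 and 6.06 CPM in B-like cells. Among the other control cells it was at 30.4 CPM in neutrophil-like (6 UMIs), 10.3 CPM in dendritic-like and 7.83 CPM in Sparc-led cells. Its highest level among the T sub-clusters was in the Foxp3-positive groups of both libraries, 26.2 CPM in the control one led by Il10 and 19.6 CPM in the PBM one led by Tiam1, against 5.53 CPM in the control cells led by Nrgn and Ccl4. Intervals of the log2 ratio between libraries included 0 in every compared class except T-like cells, where it was -0.31 (-0.59 to -0.02). That direction turned in Cd8a or Cd8b1 cells (0.26), in the T cluster led by Izumo1r (0.97, 0.17 to 1.85) and with TMM scaling of the libraries (0.0111).

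Tgfbr2 encodes the type II receptor, which binds the ligand. In the control library it was highest in B-like cells (113 CPM), followed by T-like (74.9 CPM), NK-like (70.1 CPM) and neutrophil-like cells (60.7 CPM), whose intervals overlap. It was at 30.7 CPM in monocyte/macrophage-like cells, 23.2 CPM in Sparc-led cells and 6.20 CPM in dendritic-like cells. The dendritic-like value rests on 6 UMIs, and free RNA could supply 91.2% of it. In the PBM library the levels in B-like, T-like and NK-like cells, 91.1, 89.8 and 81.6 CPM, overlapped in their intervals. Over all cells kept it was at 40.2 CPM in the control and 87.4 CPM in the PBM library, and T-like and B-like cells gave 54.6% and 37.3% of the PBM UMIs.

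The T-like class as a whole had slightly more Tgfbr2 in the PBM library, with a log2 ratio of 0.26 (0.16 to 0.36), but its direction depended on which T cells were read. In Cd4 cells without Foxp3 it was -0.17 (-0.42 to 0.08), from 119 to 106 CPM, and in Foxp3 cells 0.30 (0.01 to 0.60). The highest level of any T sub-cluster, 142 CPM, was that of PBM cells led by St8sia6 and Igfbp4, which met markers of naive-like T cells. The lowest, 32.6 CPM, was that of the histone-led dividing PBM cells. In the control library the cells led by Gzma and Ccl5 had 109.5 CPM and the Foxp3-positive ones 43.9 CPM. The Nrgn-led control cells, which also met markers of dividing cells, had 70.2 CPM.

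UMIs of both receptor genes were seen in the same cell in 5.09% of control monocyte/macrophage-like cells and 5.03% of Sparc-led cells. The share was 2.08% and 2.18% in control and PBM T-like cells and 1.45% and 1.27% in B-like cells. These shares depend on depth, which had a median of 7009 UMIs in control monocyte/macrophage-like cells and 4319 in control T-like cells.

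Smad2 and Smad3 encode the Smads that the receptor phosphorylates. In the control library Smad2 ran from 17.6 CPM in monocyte/macrophage-like to 39.9 CPM in B-like cells, where it rests on 25 UMIs, and the intervals of all neighbouring classes in this order overlapped. In PBM B-like cells it was at 22.5 CPM, a log2 ratio of -0.83 (-1.40 to -0.19), and in NK-like cells it went from 22.5 to 35.8 CPM, a log2 ratio of 0.67 (0.12 to 1.18).

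Smad3 had the clearest class pattern of the Smad genes. It was highest in NK-like cells of both libraries, at 33.5 CPM (29.9 to 37.3) in the control and 78.6 CPM (62.2 to 98.0) in the PBM library, a log2 ratio of 1.23 (0.86 to 1.59) from 324 and 79 UMIs. T-like cells followed at 19.0 and 17.6 CPM. Monocyte/macrophage-like cells had 6.87 CPM in the control library and 1 UMI in the PBM library. Control Sparc-led cells had 14.7 CPM. Free RNA could supply 4.57% and 3.64% of the NK-like levels. As a mean over cells the NK-like log2 ratio was 0.76, and with each cell thinned to 1000 UMIs it was 0.86, both under 2-fold.

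Within the control T-like cells, Smad3 ranged from 11.5 CPM in the sub-cluster led by Nrgn, Ccl4 and Xcl1 to 39.4 CPM in the one led by Gzma and Ccl5. In the PBM library its highest value, 39.0 CPM (21.3 to 65.5), was in 67 cells led by Il17re and Tcrg-C1. These cells met gamma-delta T markers, and their interval overlapped that of the next, the St8sia6-led cells (23.1 CPM). The unnamed cluster led by Klra7, Samd3 and Ly6c2, which carries T cell markers, had 40.5 and 35.6 CPM in the control and PBM libraries.

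Smad4 encodes the partner shared by the receptor-activated Smads. In the control library its level was 39.3 CPM (36.6 to 42.1) in Sparc-led and 45.5 CPM (33.0 to 61.0) in dendritic-like cells, and 22.7 to 25.6 CPM in NK-like, monocyte/macrophage-like, neutrophil-like and T-like cells. PBM T-like cells had 37.3 CPM against 25.6 CPM in the control, a log2 ratio of 0.55 (0.38 to 0.72). NK-like cells had 22.7 and 35.8 CPM, a log2 ratio of 0.66 that became -0.0043 with each cell thinned to 1000 UMIs. B-like cells had 35.1 and 23.7 CPM, with an interval of the log2 ratio from -1.18 to 0.12. Smad4 is overlapped in the annotation by a pseudogene that neither library lists.

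Smad7 encodes the inhibitory Smad, a target of the pathway that blocks the receptor. Control T-like cells had 77.9 CPM and PBM T-like cells 101 CPM, a log2 ratio of 0.37 (0.28 to 0.47). In B-like cells it was lower in the PBM library, 44.7 against 75.0 CPM, a log2 ratio of -0.75 (-1.17 to -0.29). NK-like cells had 67.9 and 54.7 CPM (-0.74 to 0.09 for the log2 ratio), and monocyte/macrophage-like cells 30.3 and 20.8 CPM (-1.50 to 0.26). Free RNA could supply 78.5% of the PBM monocyte/macrophage-like level. Of the other control cells, neutrophil-like cells had 60.7 CPM, Sparc-led cells 36.4 CPM and dendritic-like cells 17.6 CPM.

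The T-like difference in Smad7 went in opposite directions in different T cells. Cd8a or Cd8b1 cells had 63.3 CPM in the control and 92.2 CPM in the PBM library, and Cd4 cells without Foxp3 had 85.9 and 134 CPM. Foxp3 cells had 105.5 and 70.9 CPM, a log2 ratio of -0.57 (-0.81 to -0.34). Without the Ifng-led cluster the class ratio was -0.09. PBM cells led by St8sia6 and Igfbp4 had the highest Smad7 of all T sub-clusters, 155 CPM, and histone-led dividing PBM cells the lowest, 30.3 CPM. Control sub-clusters lay between 55.2 CPM, in the Nrgn-led cells that also met markers of dividing cells, and 113 CPM.

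Skil encodes SnoN, a corepressor that binds Smad complexes. It was lower in PBM T-like cells, 20.4 against 38.0 CPM, a log2 ratio of -0.90 (-1.06 to -0.74), and in each T subset: 17.3 against 29.3 CPM in Cd8a or Cd8b1 cells, 20.5 against 49.0 CPM in Cd4 cells without Foxp3, and 24.8 against 54.8 CPM in Foxp3 cells. B-like cells had 28.7 and 28.2 CPM, a log2 ratio of -0.03 (-0.70 to 0.74). Among control classes Skil was highest in neutrophil-like cells (116 CPM, from 23 UMIs) and lowest in Sparc-led cells (19.5 CPM), with dendritic-like and monocyte/macrophage-like cells at 50.6 and 45.5 CPM. NK-like cells had 35.0 CPM in the control and 26.9 CPM in the PBM library, with an interval of the log2 ratio from -1.01 to 0.18.

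**Figure D2:**
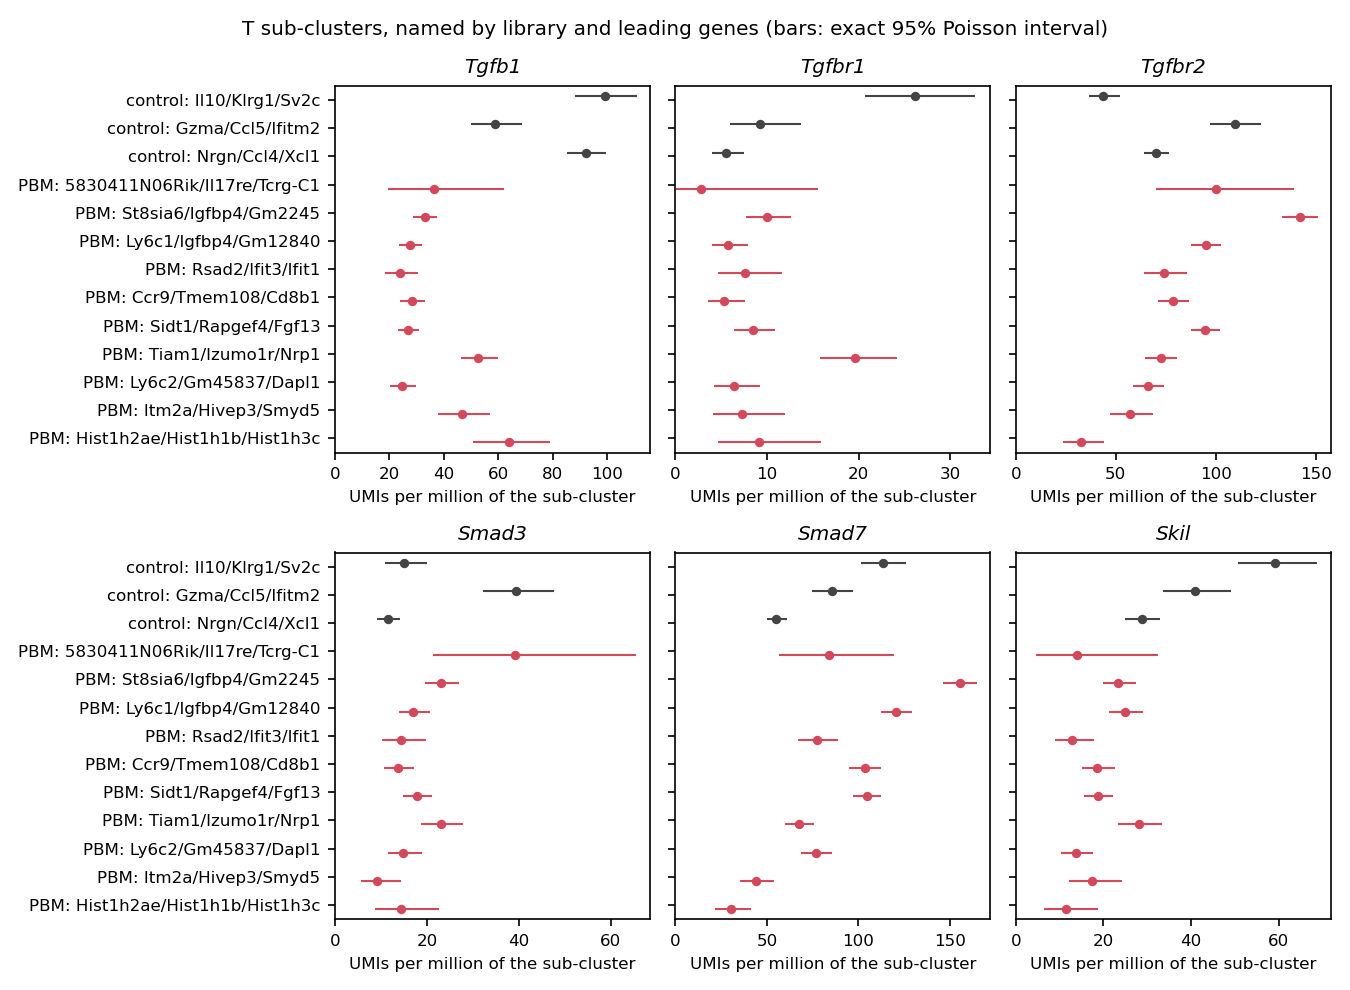
Levels of 6 of the genes (horizontal axis, CPM of the sub-cluster) in T sub-clusters with at least 50 cells in a library, each named by its library and its 3 leading genes, with exact 95% Poisson intervals. Tgfbr1 was highest in the Il10-led control and the Tiam1-led PBM cells, both Foxp3-positive, and Tgfbr2 and Smad7 were highest in the PBM cells led by St8sia6.

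The clusters that held at least 100 cells of both libraries gave smaller differences in Tgfb1. In the Klrg1 and Foxp3-led T cluster (578 control and 116 PBM cells) Tgfb1 was at 97.5 and 83.6 CPM, a log2 ratio of -0.22 (-0.59 to 0.13). It was -0.47 (-0.77 to -0.15) in the T cluster led by Izumo1r, Cd4 and Cxcr6 (418 and 678 cells) and -0.60 (-0.95 to -0.25) in the unnamed cluster led by Klra7 and Ly6c2 (443 and 677 cells). Skil was lower in the PBM cells of all 3, with log2 ratios of -0.81, -1.08 and -0.71.

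Smad7 was lower, not higher, in the PBM cells of these 3 clusters and of the B cluster led by Iglc1, Mzb1 and Igkc (157 and 1750 cells), with log2 ratios of -0.54, -0.45, -0.88 and -1.20. None of the 4 intervals reached 0. Tgfbr2 was at -0.72 in the Izumo1r-led cluster and -0.40 in the Klra7-led one, and Smad4 at -0.08 and -0.06. Of the Klrg1-led cluster, 97.4% of control cells belonged to the Il10-led sub-cluster and 85.3% of PBM cells to the Tiam1-led one. Of the Izumo1r-led cluster, 83.7% of control cells belonged to the Gzma-led sub-cluster and 80.7% of PBM cells to the Tiam1-led one, so that different cells were compared there too.

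Tgfbi encodes a secreted matrix protein that binds integrins. It was a gene of monocytes and macrophages in both libraries, at 1123 CPM (1114 to 1132) in the control and 1094 CPM (1010 to 1183) in the PBM library, a log2 ratio of -0.04 (-0.15 to 0.08). In the control library 87.4% of these cells had a UMI, and the class held 90.1% of all Tgfbi UMIs. In the PBM library 69.7% had a UMI, and the class held 66.8% of Tgfbi UMIs, with 18.5% in unnamed cells. Without the sub-cluster led by B cell genes, 72 PBM cells had 1093 CPM. Over all cells kept the gene was at 629 CPM in the control library and 12.2 CPM in the PBM library, in which monocyte/macrophage-like cells were 1.34% of cells against 46.0%.

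Lymphocytes of the control library had 77.1 CPM (T-like), 65.4 CPM (B-like) and 62.6 CPM (NK-like) of Tgfbi, and those of the PBM library 2.06, 1.87 and 1.99 CPM, log2 ratios of -5.22, -5.12 and -4.98. The PBM value of NK-like cells rests on 2 UMIs. Free RNA at the median share could supply 102%, 110% and 114% of the control levels and 110%, 98.4% and 109% of the PBM levels. It could supply 2.27 CPM in PBM T-like cells. There the Tiam1-led sub-cluster had 4.46 CPM (2.73 to 6.89), and the PBM cells of the Klrg1-led cluster had 9.72 CPM from 10 UMIs. A single PBM T-like cell held up to 7 Tgfbi UMIs. In PBM cells with a Foxp3 UMI, 10 cells held 15 Tgfbi UMIs, with up to 6 in a cell. The interval does not reflect such an uneven spread over cells. In control monocyte/macrophage-like cells free RNA could supply 7.57% of the Tgfbi level.

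Of the other control cells, neutrophil-like cells had 268 CPM, Sparc-led cells 165 CPM and dendritic-like cells 126 CPM, and free RNA could supply 130%, 42.4% and 70.3% of these. The share behind these values was 55.5% in the neutrophil-like cells (0% to 120% over 18 markers), 11.1% in Sparc-led and 14.1% in dendritic-like cells. An unnamed cluster led by Cd209a and Clec10a had 349 CPM in 307 control cells and 307 CPM in 96 PBM cells.

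**Figure D3:**
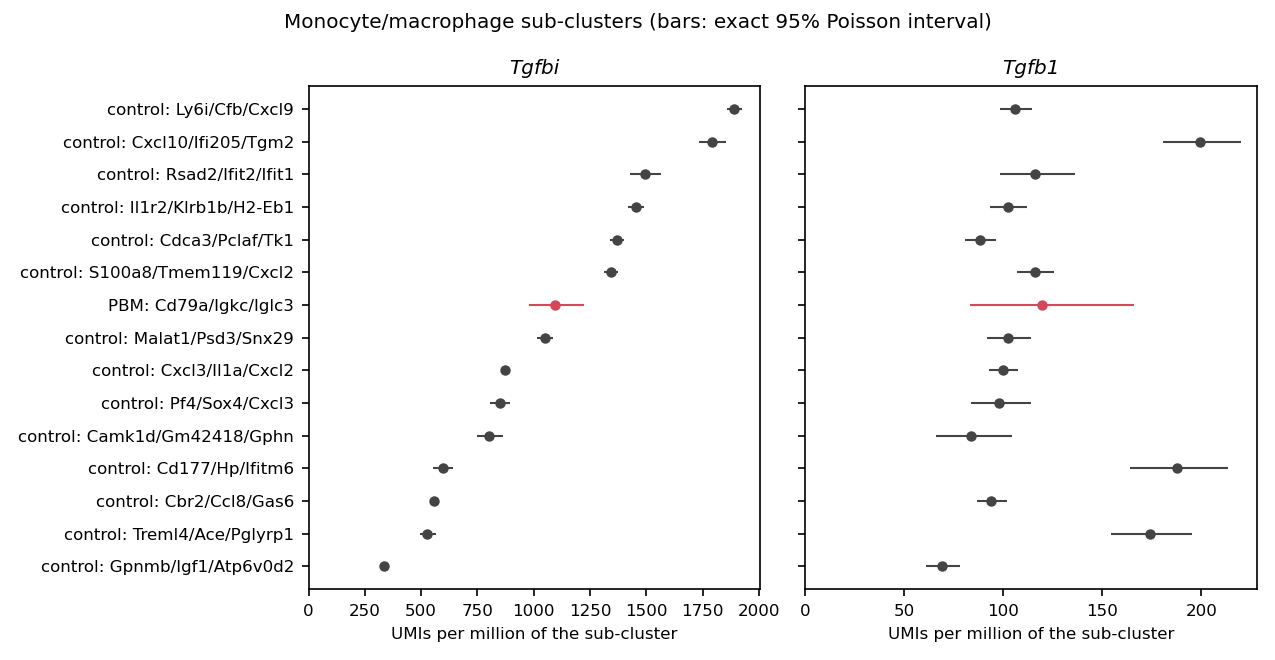
Levels of Tgfbi and Tgfb1 (horizontal axes from 0, CPM of the sub-cluster) in monocyte/macrophage sub-clusters with at least 50 cells in a library, ordered by Tgfbi and named by library and 3 leading genes, with exact 95% Poisson intervals. Tgfbi ran from 334 to 1892 and did not follow the order of Tgfb1.

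Among the control sub-clusters of monocytes and macrophages, Tgfbi was highest in cells led by Ly6i, Cfb and Cxcl9 (1892 CPM), followed by classical monocytes led by Cxcl10, Ifi205 and Tgm2 (1793 CPM). It was 559 CPM in cells led by Cbr2 and Ccl8, 528 CPM in nonclassical monocytes led by Treml4 and Ace, and 334 CPM in cells led by Gpnmb and Igf1. Tgfb1 followed another order. The classical monocytes had 199.5 CPM, the cells led by Cd177 and Hp 188 CPM and the Treml4-led cells 174 CPM, whereas the Ly6i-led cells had 106 CPM.

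The receptor genes differed among these cells as well. Tgfbr1 was at 43.5 CPM in the Treml4-led and 43.2 CPM in the Malat1-led cells and at 11.1 to 21.4 CPM in the other control sub-clusters. Tgfbr2 was highest in the Cbr2-led cells (57.7 CPM), then in the Malat1-led (52.5 CPM) and Treml4-led cells (42.8 CPM). Cells led by Camk1d had the lowest value, 12.8 CPM (6.63 to 22.4), with an interval that overlapped that of cells led by Rsad2 (14.9 CPM). Smad7 was highest in cells led by Rsad2 and Ifit2, at 69.0 CPM. The PBM cells led by B cell genes had 1095 CPM of Tgfbi, 3.41 CPM of Tgfbr1 and no Smad3 UMI.

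In PBM monocytes and macrophages, 8 of the 9 genes had enough UMIs to compare. Skil was at 24.2 CPM against 45.5 CPM, a log2 ratio of -0.91 (-1.78 to -0.16). Tgfbr2 was at 45.0 against 30.7 CPM, with an interval of the log2 ratio from -0.07 to 1.11. Free RNA could supply 41.7% of the PBM and 17.7% of the control Tgfbr2 level. Leaving out the sub-cluster led by B cell genes moved Skil to -0.52 (-1.66 to 0.40), Tgfbr1 from 0.33 to 1.25 (0.33 to 2.03) and Tgfbr2 to 0.96 (0.18 to 1.65). This left 72 PBM cells, under the minimum of 100 used for comparisons, with 13 UMIs of Tgfbr1 and 17 of Tgfbr2.

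Sparc-led cells were compared with the other control classes only, since the PBM library had 7 of them. Of the 9 connective tissue markers, 7 met the rule for naming this cluster. The 9 summed to 2913 CPM, with single markers from 1.01 to 1604 CPM, against a sum of 61.2 CPM in control monocyte/macrophage-like cells. In the Sparc-led cells monocyte/macrophage markers summed to 991 CPM, NK markers to 145 CPM, T markers to 137 CPM and epithelial markers to 0.769 CPM. Their 2 further leading genes named here were Ankrd1 and Sox9. Of 813 control cells with at least 5 Sparc UMIs, 800 lay in this cluster, against 1 such cell in the PBM library. In these 813 cells Tgfb1 was at 23.2 CPM, Tgfbr2 at 24.5 CPM, Smad4 at 38.8 CPM, Smad7 at 35.8 CPM and Tgfbi at 173 CPM.

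**Figure D4:**
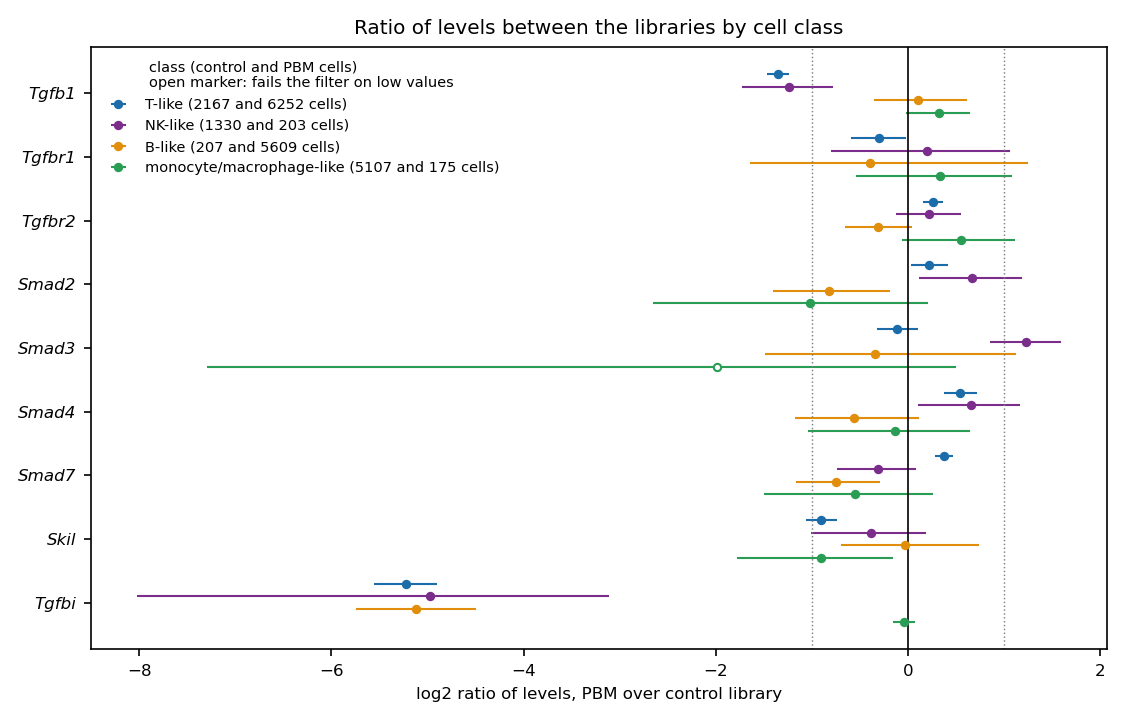
Log2 ratio of the PBM over the control level of each gene in the 4 compared classes, which had 100 or more cells per library, with exact conditional binomial 95% intervals; dotted lines mark 2-fold, and the open marker is Smad3 in monocytes and macrophages, which failed the filter on low values. Tgfb1 and Skil lay to the left in T-like cells, Smad3 to the right in NK-like cells, and Tgfbi far to the left in lymphocytes only. Free RNA could supply 98.4% to 114% of the lymphocyte levels of Tgfbi.

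The 9 genes did not move one way. In T-like cells Tgfb1 and Tgfbi were at least 2-fold lower in the PBM library and none was 2-fold higher, where 13.9% of all 9101 genes compared were as much lower and 4.11% as much higher. In NK-like cells the same 2 genes were lower and Smad3 higher, against 6.43% and 7.02% of genes. In B-like cells Tgfbi was lower, against 9.46% of genes, and none was 2-fold higher, against 3.78%. Free RNA could supply 102%, 114% and 110% of the control Tgfbi level in T-like, NK-like and B-like cells. In monocyte/macrophage-like cells Smad2 was lower on 5 PBM UMIs, against 10.8% of genes, and none was 2-fold higher, against 9.03%. Free RNA could supply 59.9% of that PBM level of Smad2. The median log2 ratio of the genes was -0.11 in T-like, 0.19 in NK-like, -0.40 in B-like and -0.08 in monocyte/macrophage-like cells, where the medians of all genes compared were -0.19, 0.13, -0.17 and -0.02. Whether the 9 genes differ from other genes in these values was not tested.

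The T subsets and the clusters shared by both libraries gave the same kind of count. In Cd8a or Cd8b1 cells Tgfb1 and Tgfbi were at least 2-fold lower in the PBM library (14.5% of all genes compared were), in Cd4 cells without Foxp3 Tgfb1, Skil and Tgfbi (13.9%), and in Foxp3 cells Skil and Tgfbi (10.9%). None of the 9 genes was 2-fold higher in these subsets, where 5.22%, 5.22% and 4.09% of all genes were. In the Klrg1-led cluster Tgfbi alone was 2-fold lower (9.11% of genes), in the Izumo1r-led cluster Skil and Tgfbi (8.01%), in the Klra7-led cluster Tgfbi alone (7.38%) and in the Mzb1-containing B cluster Smad7 and Tgfbi (10.4%). None was 2-fold higher there, against 4.73%, 5.37%, 2.92% and 5.12% of genes. In control T-like and B-like cells as whole classes, free RNA could supply 102% and 110% of the Tgfbi level.

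Of 63 further symbols of pathway genes, which include both Ccn2 and Ctgf for 1 gene, 62 are listed for at least 1 library. In T-like cells 36 of these had enough UMIs, of which 14 were at least 2-fold lower and 4 at least 2-fold higher in the PBM library, where 13.9% and 4.11% of all genes compared were. In NK-like cells it was 9 and 2 of 33 (6.43% and 7.02% of all genes), in B-like cells 11 and 1 of 30 (9.46% and 3.78%), and in monocyte/macrophage-like cells 5 and 4 of 37 (10.8% and 9.03%). In T-like cells 6 of the 8 genes for ligands and their release that could be compared were at least 2-fold lower, where 13.9% of all genes were. This group included Thbs1, for thrombospondin 1, which activates latent TGF-beta (23.3 and 0.534 CPM), and Mmp14, for a membrane protease (15.8 and 0.825 CPM). Free RNA could supply 62.5% and 118% of the control levels of Thbs1 and Mmp14, so the count includes genes open to carried-over RNA. What it could supply of the rest of the 6 was not computed.

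Among known target genes in T-like cells, Fn1, for fibronectin, had 116 and 1.12 CPM and Timp1, for a protease inhibitor, 12.3 and 0.486 CPM. Free RNA could supply 62.5% of the control T-like level of Thbs1, 118% of that of Mmp14, 102% of that of Fn1 and 117% of that of Timp1. Id3, which encodes an inhibitor of E proteins, went the other way, from 5.45 to 97.5 CPM, a log2 ratio of 4.16 (3.83 to 4.52), of which free RNA could supply 12.3% and 22.9% of the level.

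In NK-like cells Fn1, Timp1 and Cdkn1a, for a cell cycle inhibitor, had 121, 11.0 and 51.2 CPM in the control library and 0.995, 0.995 and 4.98 CPM in the PBM library, where Fn1 and Timp1 rest on 1 UMI each. Thbs1 and Mmp14 had 19.8 and 13.3 CPM in the control library and no PBM UMI. With the floor of 3 counts in its place their log2 ratios were -2.73 and -2.16, with upper 95% limits of -2.42 and -1.84. Free RNA could supply 88.0% of the control NK-like level of Fn1, 119% of Timp1, 58.7% of Cdkn1a, 66.9% of Thbs1 and 127% of Mmp14. In B-like cells Id3 was higher (54.3 and 157 CPM), and Id2 (84.6 and 9.34 CPM), Pmepa1 (20.7 and 3.68 CPM), Furin, for a protease that matures the ligand (33.5 and 9.05 CPM), and Itgav, for an integrin chain that binds latent TGF-beta (23.9 and 8.58 CPM), were lower. In monocyte/macrophage-like cells Id3 (3.35 and 46.7 CPM) and Zfyve9, for a Smad anchor protein (13.3 and 34.6 CPM), were higher, and Smad1 (19.1 and 3.46 CPM), Pmepa1 (187 and 38.1 CPM) and Fn1 (1710 and 696 CPM) lower. Free RNA could supply 62.5% of the control B-like level of Id2, 80.1% of Pmepa1, 43.6% of Furin and 17.9% of Itgav. In PBM monocyte/macrophage-like cells it could supply 55.2% of the level of Id3 and 72.8% of that of Smad1, which rests on 2 UMIs.

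The genes whose levels were most like those of each gene over the 11 class-by-library points were given by Pearson's r of log2 levels among 8349 genes, as a description. They were Ccl7 (r = 0.99), Grn and Arg1 for Tgfbi, Socs3 (0.99), Atg7 and Rnf149 for Tgfbr1, and Itpr2 (0.96), Il16 and Entpd6 for Tgfbr2. For Tgfb1 they were Cklf (0.92), Sh3bp2 and Slc16a6, for Skil Antxr2 (0.96), Ccrl2 and Cpeb4, and for Smad7 Anp32a (0.93), Lsm14a and Srpk2. For Smad3 Cul3 (0.95), Tent4b and Ust came first, for Smad2 Zfx (0.94), Pdcl and Mau2, and for Smad4 Pcbp2 (0.86), Mfhas1 and Sac3d1. The points of a library share its free RNA and preparation.

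In the mm10 reference assembly (GRCm38.p6 in RefSeq) the genes are protein-coding. Tgfb1 lies on chromosome 7 from 25687002 to 25705077, Tgfbr1 on chromosome 4 from 47353222 to 47414926, Tgfbr2 on chromosome 9 from 116087695 to 116175363, Smad3 on chromosome 9 from 63646766 to 63757994, Skil on chromosome 3 from 31095058 to 31122923, and Tgfbi on chromosome 13 from 56609586 to 56639359. Smad2, Smad4 and Smad7 lie on chromosome 18.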

How the data were processed

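Both matrices, as deposited by the authors, contain whole UMI counts of gene symbols by barcode that were not normalized; Cell Ranger 7.2.0 and mm10 are named in the submitters' processing notes, and PISA 0.12 per the file headers, so which program made the counts is not settled. Every barcode held at least 1002 (control) or 1005 (PBM) UMIs. Cells needed 500 UMIs, 200 genes and at most 10% mitochondrial UMIs, which left out 11 and 1 barcodes, and Scrublet calls left out 128 (1.14%) and 899 (6.44%) more. Cells were clustered in scanpy 1.11.5 (2000 variable genes without the 9 genes and the pathway lists, 30 components, 15 neighbours, Leiden resolution 1.0, no integration) and named "X-like" from at least 3 markers. Levels are class sums per 1000000 UMIs with exact Poisson intervals, log2 ratios have exact conditional binomial intervals, checked on simulated data, and genes compared needed 20 UMIs and a mean of 5 CPM. Sums of 0 were set to 3 counts.

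Free RNA is the median, over markers of other classes, of their level in a class relative to the whole library. The genes named are the 9 genes, per class the 5 pathway genes with the largest log2 ratio (at least 100 UMIs and 10 CPM), and the 3 most alike genes (log2 of CPM plus 10). Members and lists were chosen with earlier results of these data known. No test was made, since each group is 1 library. Alternatives covered clustering, doublets, normalization, thinning to 1000 UMIs, free RNA, subsets and filters.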

Additional observations from a re-analysis of the deposited data

Results flagged for a closer look

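Smad2 and Smad7 differed in direction between classes. The log2 ratio of Smad2 was 0.67 in NK-like and -0.83 in B-like cells, a difference of 1.495, and that of Smad7 was 0.37 in T-like and -0.75 in B-like cells, a difference of 1.12. In each pair the 2 intervals lay on opposite sides of 0, but with 1 library per group the difference itself was not tested. The B-like control levels rest on 25 UMIs of Smad2 and 47 of Smad7 in 207 cells. The Smad7 value of T-like cells turned negative in clusters shared by both libraries, and which T cells made up the class differed between them.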

How the results depend on the processing

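No paired analysis was possible because each group has 1 library. For the same reason no library could be left out. Of the alternative values of single genes 14 turned the direction of a ratio whose interval excluded 0, 54 moved by more than that interval and 325 did neither. Turned in T-like cells were Smad7 after thinning (-0.0083), without the Ifng-led cluster (-0.0933) and in the clusters led by Klrg1 (-0.54), Izumo1r (-0.45) and Klra7 (-0.88), Tgfbr1 with TMM factors (0.0111), in Cd8a or Cd8b1 cells (0.26) and in the Izumo1r-led cluster (0.97), Tgfbr2 in Cd4 cells (-0.17) and the Izumo1r-led (-0.72) and Klra7-led (-0.40) clusters, and Smad4 in the last pair (-0.0795 and -0.0556). In NK-like cells Smad4 turned after thinning (-0.0043). TMM factors, which shift all T-like ratios by 0.32, NK-like by -0.18, B-like by 0.28 and monocyte/macrophage-like by -0.06, turned no other such ratio.

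The T-like median was 0.21 with TMM factors, -0.34 after thinning, -0.47 without the Ifng-led cluster, -0.55 in Cd4 cells, -0.47 in the Izumo1r-led and -0.60 in the Klra7-led cluster. The T-like count of genes at least 2-fold apart, 2, became 1 with free RNA subtracted and in the Klrg1-led and Klra7-led clusters, and 4 without the Ifng-led cluster. In NK-like cells thinning gave a median of -0.78 and a count of 1 in place of 3, and a fold of 1.5 a count of 5. In B-like cells the count of 1 became 2 with the mean over cells or the Igkc-led cluster alone, 3 after thinning or with a fold of 1.5, and 0 with a minimum of 100 UMIs. In monocyte/macrophage-like cells it became 0 at resolution 0.5 or 2.0, with each library clustered alone, with doublets kept or with the mean over cells, and 2 with free RNA subtracted, no minimum, a minimum of 100 UMIs or a fold of 1.5. The clusters shared by both libraries, and leaving out the sub-cluster led by B cell genes, were added after seeing the data. Causes of these shifts were not tested. Depth limits the classes with few cells in a library, such as PBM NK-like, PBM monocyte/macrophage-like, control B-like and control neutrophil-like cells.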
